A study of Mus musculus with 28 samples.

Results

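A set of 7 genes that mark how neurons use glutamate and GABA was followed through the 3-week mouse brain: Slc17a7, Slc17a6, Slc17a8, Slc32a1, Gad1, Gad2 and Slc6a11. Members were the array probes whose transcript accession mapped to these symbols, and all 7 genes were found among the 20660 gene symbols on the array. Where a gene had more than 1 probe, the probe with the highest mean level was used. The brains came from male C57BL/6J mice aged 3 weeks, and Transcriptome Tomography was used, a method that cuts a frozen brain into thin sections along an axis and extracts RNA from pools of neighbouring sections, called fractions. There were 12 coronal, 6 horizontal and 10 sagittal fractions, and each plane was cut from 1 mouse of its own. In the labels each pool is 100 sections, each 5 micron thick. Another source gives a different thickness, so positions are fraction numbers here. The label of coronal fraction 12 names a further fraction pooled into it. No position was measured in a second animal, so a difference between planes and one between animals cannot be told apart.

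Excitatory neurons load glutamate into synaptic vesicles with a vesicular glutamate transporter. Slc17a7 encodes VGLUT1, best known from the cerebral cortex, the hippocampus and the granule cells of the cerebellum, and Slc17a6 encodes VGLUT2, best known from the thalamus, midbrain, hypothalamus and hindbrain. Inhibitory neurons make GABA from glutamate with the decarboxylases encoded by Gad1 and Gad2 and load it with the vesicular transporter encoded by Slc32a1, while Slc17a8 encodes VGLUT3 of scattered small cell groups and Slc6a11 encodes GAT-3, a transporter that takes GABA back up, mainly into astrocytes.

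The starts of the 3 vesicular glutamate transporter genes are shown because Slc17a6 and Slc17a8 varied together over the fractions and Slc17a7 did not follow them. Each line is the 250 bases before the first listed start in RefSeq on GRCm38.p6, read 5′ to 3′ on the strand of the gene (gene positions below are from the same source), with capitals on matches to CANNTG (E-box, the same letters on both strands) and to GGGCGG or its other-strand form CCGCCC (GC box).
Slc17a7: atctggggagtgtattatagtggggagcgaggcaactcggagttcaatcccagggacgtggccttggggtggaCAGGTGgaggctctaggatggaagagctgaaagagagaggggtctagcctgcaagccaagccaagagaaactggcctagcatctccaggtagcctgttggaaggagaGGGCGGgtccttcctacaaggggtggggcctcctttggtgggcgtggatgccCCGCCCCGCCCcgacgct
Slc17a6: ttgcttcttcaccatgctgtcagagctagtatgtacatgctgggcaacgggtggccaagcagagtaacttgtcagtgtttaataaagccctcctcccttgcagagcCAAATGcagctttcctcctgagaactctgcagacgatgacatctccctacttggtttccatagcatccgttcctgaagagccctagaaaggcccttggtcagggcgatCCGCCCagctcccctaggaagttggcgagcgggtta
Slc17a8: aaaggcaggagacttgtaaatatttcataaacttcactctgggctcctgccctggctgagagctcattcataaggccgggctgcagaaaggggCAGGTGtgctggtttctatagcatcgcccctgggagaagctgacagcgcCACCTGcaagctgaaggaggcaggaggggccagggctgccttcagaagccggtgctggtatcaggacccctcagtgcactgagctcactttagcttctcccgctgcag
The Slc17a7 window (chr7:45163671-45163920, plus strand) held 1 E-box and 3 GC boxes, of which the last 2 share a base. The Slc17a6 window (chr7:51621580-51621829, plus strand) held 1 of each, and the Slc17a8 window (chr10:89621250-89621499, minus strand) held 2 E-boxes and no GC box. Of all 32851 windows of this length, 66.2% held an E-box and 32.7% a GC box, so both are common. A homeobox core, TAATTA, was in 4.84% of all windows and in none of these 3, though the windows before the second listed starts of Slc17a6 and Slc17a8 each held 1, and that of Slc17a6 also 1 CRE core. None of the 3 windows shown held the core of the CRE, TGACG on either strand, found in 17.8% of all windows, or the TATA box, TATAAA on either strand, found in 12.4%. The GC content was 61.2% for Slc17a7, 53.2% for Slc17a6 and 57.2% for Slc17a8, beside a median of 52.4%.

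The level of a gene is the log2 of its array signal minus the log2 of the 75th percentile signal of the same array, so a level of 0 is the brightness of a probe at that percentile. Signals of different probes are not on 1 scale, so the levels of 2 genes are not compared, only their courses over the fractions. All 7 genes were well above background on all 28 arrays. A change with position was tested within each plane by fitting a smooth curve of the fraction number to every detected probe (limma F-test, Benjamini-Hochberg adjusted p with a threshold of 0.05), so the error is the scatter of fractions around the curve and not a spread between animals. A sagittal series crosses both hemispheres, so its mirror fractions (1 and 10, 2 and 9, and so on) were the nearest thing to a replicate, and the SD estimated from these 5 pairs is given as the mirror SD. Of these pairs 4 have their fractions on different slides, so the mirror SD also holds any slide difference. In bulk tissue fewer cells of a type and less RNA per cell cannot be told apart.

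The axes were read from marker lists. Hindbrain markers were highest in coronal fraction 1 and olfactory bulb markers in fraction 12, so the coronal series ran from the caudal to the rostral end. Cerebral cortex markers were highest in horizontal fraction 1 and hypothalamus markers in fraction 6. In the sagittal series hypothalamus markers peaked in fraction 5 and midbrain markers in fraction 6, near the midline. Sagittal fraction 1 stood apart before any result: its 75th percentile signal was 135, the lowest of arrays that ranged up to 574, and its oligodendrocyte markers (6 of 6 tested) lay at -2.99 relative to each gene's own mean, against -0.85 to 0.79 in the other sagittal fractions. Arrays of the coronal series lay on 3 slides and those of the sagittal series on 2, with neighbouring fractions on the same slide, so slide and position were partly confounded there, while the horizontal series lay on 1 slide.

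Position trends were found for 5 of the 7 genes in the coronal plane, for 2 in the horizontal plane and for 5 in the sagittal plane. Over all 32364 detected probes the shares were 33.7%, 15.8% and 14.7% in the same order. The median fitted range of the 7 genes, highest minus lowest point of the curve, was 1.85, 1.28 and 2.10 log2 in the 3 planes, beside 0.90, 0.74 and 1.06 over all detected probes.

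Slc17a7 (chr7:45163921-45176139) was lowest at the caudal end of the coronal axis and at the ventral end of the horizontal axis. Its coronal levels were 1.90, 2.33, 2.10, 2.45, 3.49, 3.74, 3.28, 3.35, 3.66, 3.97, 3.17 and 2.99 from fraction 1 to 12. Fractions 1 to 4 were thus all below fractions 5 to 12, and the step between the groups, from 2.45 to 2.99, was the single gap in the ordered coronal levels larger than the mirror SD of 0.31. The coronal trend had a fitted range of 1.85 (limma adjusted p = 0.00781). With levels centred on each array's median, its highest coronal fraction was 6 and not 10, and its lowest sagittal fraction 9 and not 5.

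From the dorsal to the ventral end Slc17a7 fell, with horizontal levels of 3.60, 3.49, 3.11, 2.84, 2.44 and 1.70 (limma adjusted p = 0.0200). With array-median centring fraction 2 and not fraction 1 was the highest. The horizontal call was lost without fraction 3, 4 or 6, at adjusted p of 0.0686, 0.0710 and 0.0533, and with a stiffer curve (0.108). Its fitted range was 1.88, 1.84 and 1.19 without these fractions, against 1.85 with all, and over all probes 0, 0 and 1336 were called, against 5115. The sagittal levels were 4.44, 3.55, 3.30, 2.87, 1.92, 2.74, 2.96, 3.46, 3.19 and 4.10, so both lateral edges were high and fraction 5 low (limma adjusted p = 0.0315). This sagittal call was lost without any 1 of fractions 1 to 7, with a limma adjusted p from 0.0554 without fraction 5 to 0.196 without fraction 1. The fitted range was then 1.49 to 2.13, against 1.95 with all fractions. The call was also lost with array-median centring (limma adjusted p = 0.407, fitted range 1.47). Mirror fractions differed by a median of 0.34, against 0.81 for the other 40 pairs of sagittal fractions.

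Slc17a6 (chr7:51621830-51671126), which loads glutamate in most subcortical excitatory neurons, was lowest in rostral coronal fractions. Its coronal levels were 2.54, 2.13, 2.35, 3.20, 2.66, 3.01, 2.86, 1.46, 0.25, -0.03, 0.24 and 0.54. Fractions 1 to 7 were all above 2 and fractions 9 to 12 all below 1, with fraction 8 between them, and the trend had a fitted range of 2.99 (limma adjusted p = 0.00415). Its highest coronal fraction was 4, beside fraction 5 for midbrain markers and fraction 6 for thalamus markers.

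In the horizontal plane Slc17a6 stood at 0.45, 1.39, 1.28, 2.35, 2.58 and 1.73, and the trend did not pass the threshold (limma adjusted p = 0.0880). It passed with array-median centring (0.0188, fitted range 2.38 in place of 1.73, with 19258 of all 32364 probes called against 5115), with normexp background correction (0.0307) and among probes well above background on all 28 arrays (0.0408). In the sagittal plane it stood at -0.96, 0.38, 1.47, 2.88, 2.95, 3.18, 2.35, 0.44, 0.30 and 1.22, high in fractions 4 to 7 and lower in the others, with a fitted range of 4.16 (limma adjusted p = 0.0191). Fraction 1 was the lowest, while fraction 10 was near the sagittal median of 1.35. Without sagittal fraction 1 the limma adjusted p was 0.118 and the fitted range 3.11, and without fraction 5 they were 0.0576 and 4.06. The outermost mirror pair differed by 2.18, more than any other pair of this gene, while fractions 2 and 9 differed by 0.08. Of the 7 genes Slc17a6 had the largest SD over the 28 fractions, 1.17, at the 91.5th percentile of detected probes.

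**Figure D1:**
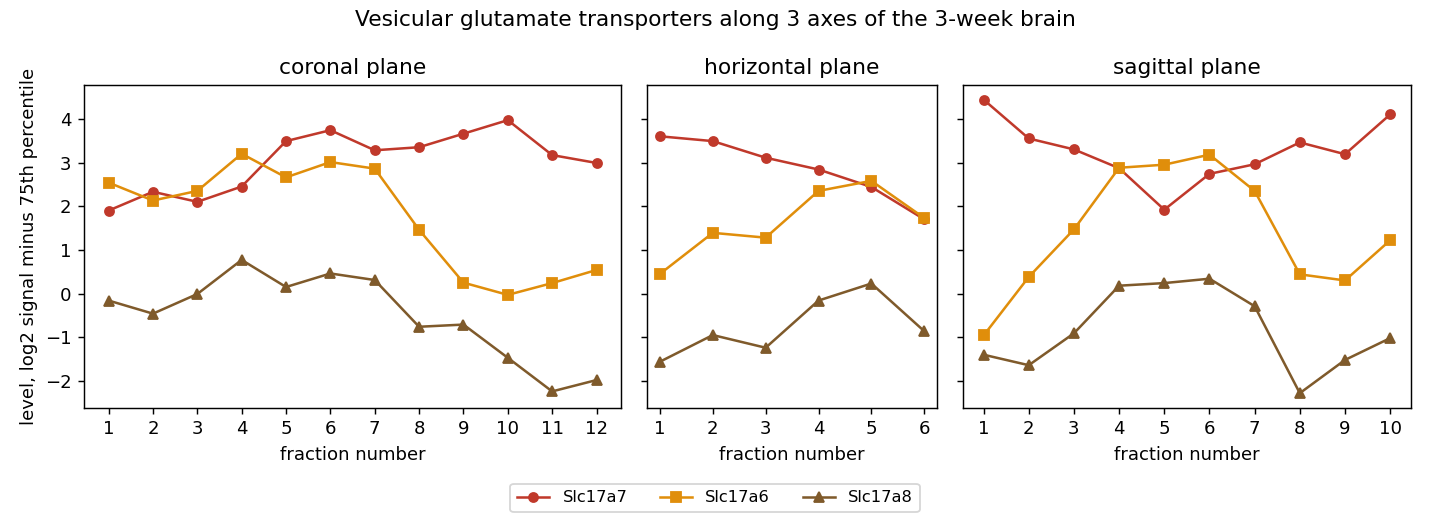
Level (log2 signal minus the array's 75th percentile) of the 3 vesicular glutamate transporter genes against fraction number in the coronal, horizontal and sagittal planes, 1 array per point. Slc17a7 is high where Slc17a6 and Slc17a8 are low in coronal fractions 9 and 10 and in sagittal fraction 1. In sagittal fraction 10 Slc17a6 and Slc17a8, at 1.22 and -1.02, lie near their sagittal medians of 1.35 and -0.97. The heights of different genes are not comparable.

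Slc17a8 (chr10:89574020-89621249) had signals of 51.3 to 979 before scaling. Its coronal levels were -0.16, -0.46, -0.01, 0.77, 0.15, 0.46, 0.31, -0.76, -0.71, -1.47, -2.24 and -1.98. All of fractions 1 to 7 were above all of fractions 8 to 12, and this was the coronal trend with the lowest p of the 7 genes, at a fitted range of 2.75 (limma adjusted p = 0.00131). The horizontal levels ran from -1.56 in fraction 1 to 0.23 in fraction 5 and the sagittal levels from -2.28 in fraction 8 to 0.34 in fraction 6, and neither plane gave a call (limma adjusted p = 0.236 and 0.216).

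Because 8 of the coronal fractions, 3 to 10, lay on 1 slide, the coronal trends were also fitted on these alone. Slc17a7, Slc17a6 and Slc17a8 were called there too (limma adjusted p = 0.0256, 0.0199 and 0.0489). With slide as a term in the fit of all coronal fractions none of them was called (limma adjusted p = 0.121, 0.103 and 0.169), at fitted ranges of 3.43, 4.33 and 2.39 and with 241 of all probes called, against 10910 without the term. In the sagittal plane the slide term left Slc17a7 and Slc17a6 called (limma adjusted p = 0.0390 and 0.0410). The 6 fractions of 1 slide gave a limma adjusted p of 0.690 for all 3 genes, with 0 of all probes called. The fitted ranges were 2.09, 3.00 and 2.30 there, against 1.95, 4.16 and 1.98 with all sagittal fractions.

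Slc17a8 followed Slc17a6 closely. Over the 28 fractions Pearson's r between them was 0.90 and Spearman's rho 0.91, with r of 0.91, 0.97 and 0.89 within the coronal, horizontal and sagittal planes. Neighbouring fractions of 1 brain are not independent, so these are descriptions without a p. Among 15560 gene symbols Slc17a6 was the one most like Slc17a8. A second Slc17a8 probe was clearly above background on 3 arrays and could not serve as a check.

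The difference Slc17a7 minus Slc17a6 was formed on each array, so the array's scaling cancels in it. Its zero depends on the 2 probes, so only its change over fractions has a meaning. In the coronal series it was -0.64, 0.21, -0.25, -0.75, 0.83, 0.73, 0.43, 1.89, 3.41, 4.00, 2.93 and 2.44. Fractions 1 to 7 lay between -0.75 and 0.83 and fractions 8 to 12 between 1.89 and 4.00, and the gap between the groups, 1.06, was the single coronal gap over the mirror SD of 0.93. The coronal range was 4.75, from fraction 4 to fraction 10.

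The horizontal differences were 3.15, 2.10, 1.82, 0.49, -0.13 and -0.03, which is a decline from the dorsal to the ventral end with fractions 5 and 6 alike. The sagittal differences were 5.40, 3.17, 1.82, -0.01, -1.04, -0.44, 0.61, 3.02, 2.89 and 2.88. Both edges were high and the 4 middle fractions low, with a range of 6.43. Without fraction 1 the sagittal range was 4.21. Mirror fractions differed by a median of 0.61, against 2.46 for the other 40 pairs.

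Slc17a7 and Slc17a6 were inversely related over the 28 fractions, with r of -0.60 and rho of -0.56. Leaving out the 2 fractions with Slc17a7 levels farthest from the median gave r of -0.64. Within planes r was -0.42, -0.60 and -0.81 for coronal, horizontal and sagittal fractions. In coronal fractions 5 to 7 both genes were high, and in fractions 1 to 3 Slc17a7 was low while Slc17a6 was below its maximum.

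**Figure D2:**
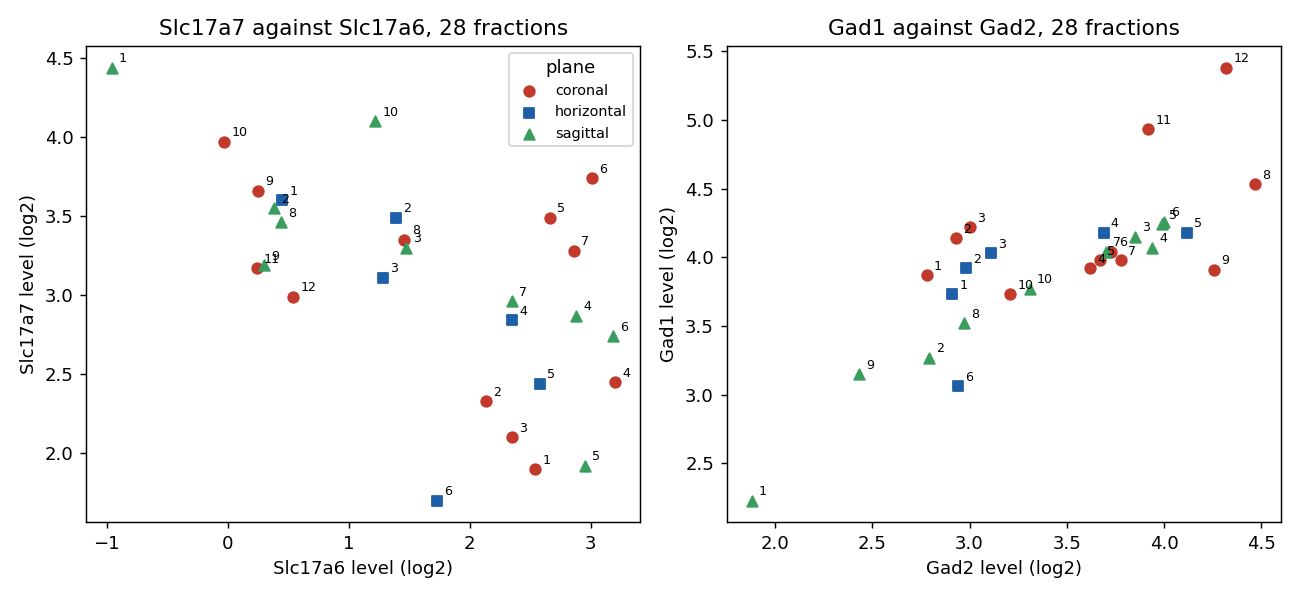
Left: Slc17a7 level against Slc17a6 level; right: Gad1 level against Gad2 level, both in log2 relative to the array's 75th percentile, 1 point per fraction with its number, shape and colour by plane. The left points fall from sagittal fraction 1 (4.44 and -0.96) to the caudal coronal fractions, and coronal fractions 5 to 7 lie above that course; the right points rise together, with coronal fractions 11 and 12 high for Gad1.

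Other measures moved with this difference. Over the 28 fractions it had r of -0.78 with the mean of 6 oligodendrocyte markers, 0.73 with 5 microglia markers, -0.57 with 6 neuron markers and -0.54 with 6 astrocyte markers. Its r was -0.67 with the log2 of the array's 75th percentile signal. Of the region lists, r was -0.74 with hindbrain, -0.61 with midbrain, -0.53 with thalamus, -0.51 with cerebellum, -0.35 with hippocampus and -0.25 with hypothalamus markers. It was 0.43 with cerebral cortex markers and 0.14 with both striatum and olfactory bulb markers. Slc17a7 alone had r of 0.70 with cerebral cortex, 0.06 with hippocampus and -0.54 with cerebellum markers. The genes of these lists were not uniform. Single hippocampus genes had r with Slc17a7 from -0.42 (Prox1) to 0.45 (Wfs1), so their mean hides opposite courses. In the cerebellum list Barhl1 had 0.55 and the others -0.56 to -0.52, and cerebral cortex genes had 0.33 to 0.75. The part of these markers and of array brightness in the difference was not tested. The neuron marker mean joins genes of unlike course, with Nefl highest in coronal fraction 1 and Syt1 in fraction 9. Of its 6 genes, 4, 2 and 0 had a coronal, horizontal and sagittal trend (limma, as above). The shares over all probes were 33.7%, 15.8% and 14.7%. Set relative to this mean, a choice made after seeing the data, Slc17a7 spanned 2.39, 1.56 and 3.18 log2 in the coronal, horizontal and sagittal planes. On the same scale the spans of Gad1, Gad2 and Slc32a1 were 1.35, 1.45 and 1.38 in the sagittal plane, where the levels themselves spanned 2.02, 2.12 and 2.09. In the coronal plane they were 2.13, 2.15 and 1.96, where the levels spanned 1.65, 1.70 and 1.73.

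**Figure D3:**
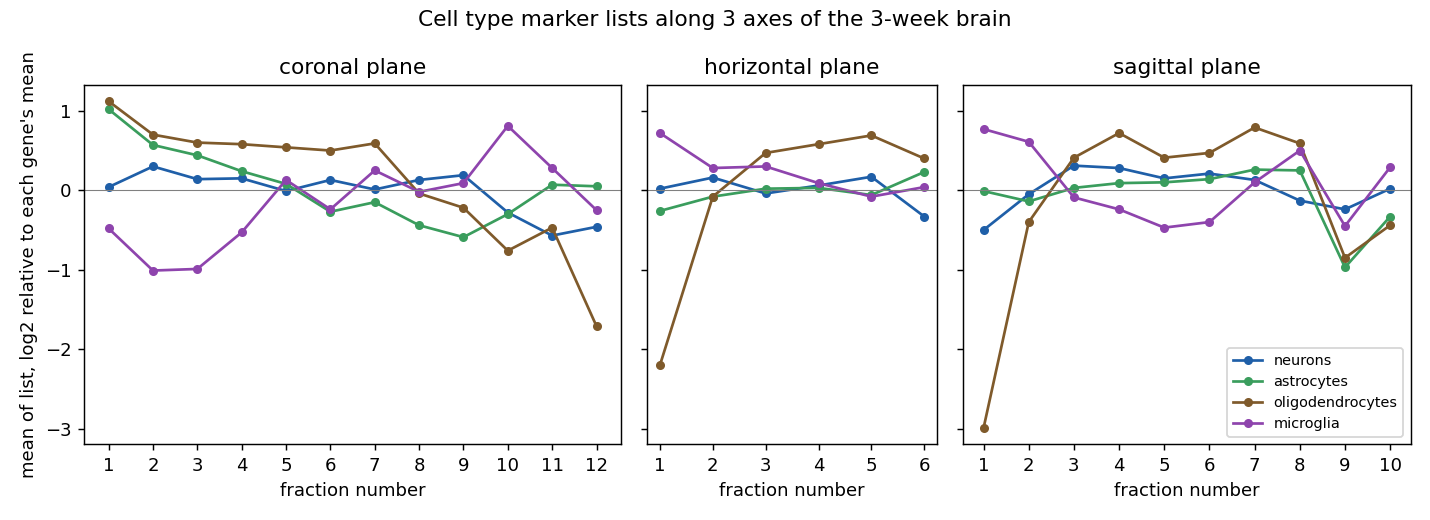
Mean level of the neuron, astrocyte, oligodendrocyte and microglia marker lists, each gene relative to its own mean over 28 fractions (log2), against fraction number in the 3 planes. Oligodendrocyte markers drop to -2.20 in horizontal fraction 1 and to -2.99 in sagittal fraction 1, while the mean of the neuron list stays between -0.57 and 0.31. Single neuron markers differ in course: in the coronal plane Nefl is highest in fraction 1 and Syt1 in fraction 9.

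The genes of GABA synthesis and loading had fitted coronal ranges of 0.89 to 1.33, and coronal fraction 12 held the highest level of Gad1 and Slc32a1. Gad1 (chr2:70561303-70602014) encodes GAD67, the decarboxylase that makes most of the basal GABA pool. Its coronal levels were 3.87, 4.14, 4.22, 3.92, 3.98, 4.04, 3.98, 4.53, 3.91, 3.73, 4.93 and 5.38. Fractions 11 and 12, at the olfactory bulb end, were the highest, and fraction 8, where striatum markers peaked, came next. The trend missed the threshold (limma adjusted p = 0.0524, fitted range 1.28), and it passed without fraction 8 (0.0182) or fraction 10 (0.0126), with normexp (0.0354) and among probes well above background on all arrays (0.0267). Without fraction 12 the fitted range was 0.56 (0.583), with slide as a term 0.27 (0.987), and on fractions 3 to 10 of 1 slide 0.56 (0.325).

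Gad2 (chr2:22621015-22693877) encodes GAD65, the form held at nerve terminals. It stood at 2.78, 2.93, 3.00, 3.62, 3.67, 3.73, 3.78, 4.47, 4.26, 3.21, 3.92 and 4.32 along the coronal axis. The 3 caudal fractions were the lowest and fractions 8, 12 and 9 the highest, with an adjusted p of 0.0415 and a fitted range of 1.33 (limma). Leaving out any 1 of 9 fractions (all but fractions 8, 10 and 12) took this p above the threshold, up to 0.109 without fraction 1. With array-median centring it was 0.0976, with slide as a term 0.511, and on fractions 3 to 10 of 1 slide 0.180. The fitted ranges were 1.48, 1.46 and 1.05 in the same order, and 1.20 to 1.36 in the omissions that lost the call.

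The offset between Gad1 and Gad2 was not constant. It was largest at both coronal ends: Gad1 minus Gad2 lay between 1.1 and 1.22 in coronal fractions 1 to 3, between -0.35 and 0.52 in fractions 4 to 10, and 1.01 and 1.06 in fractions 11 and 12. The mirror SD of this difference, from the sagittal series, was 0.13. Coronal fractions 1 and 2 lay on 1 slide, fractions 3 to 10 on another and fractions 11 and 12 on a further one. The part of slide in this difference was not tested. Cerebellum markers were highest in coronal fraction 3. Over the 28 fractions the difference had r of -0.70 with striatum, -0.60 with cerebral cortex and -0.54 with hypothalamus markers. Its r was -0.38 with hippocampus, -0.36 with thalamus, 0.41 with astrocyte, 0.34 with endothelium and 0.31 with cerebellum markers. In the horizontal plane it ran from 0.93 in fraction 2 to 0.06 in fraction 5, and in the sagittal plane it stayed between 0.14 and 0.72.

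Slc32a1 (chr2:158607260-158615747), which fills vesicles with GABA, had a bright probe, at the 97.5th percentile of mean level over detected probes. Its coronal levels were 6.94, 7.12, 6.68, 6.63, 6.23, 6.22, 6.47, 7.04, 7.02, 5.86, 7.10 and 7.59. No coronal trend was called (limma adjusted p = 0.283), except without fraction 10 (0.0251), and no gap between neighbouring levels exceeded the mirror SD of 0.48. A second, dimmer Slc32a1 probe with signals of 46.0 to 488 had r of 0.45 with the probe used, so the 2 probes agreed only in part.

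Across the midline Gad1, Gad2 and the Slc32a1 probe used were highest in fraction 6 and lowest in fraction 1. Gad1 stood at 2.23, 3.27, 4.15, 4.07, 4.24, 4.26, 4.04, 3.52, 3.15 and 3.77 from sagittal fraction 1 to 10, Gad2 between 1.88 in fraction 1 and 4.00 in fraction 6, and Slc32a1 between 4.94 in fraction 1 and 7.04 in fraction 6. In all 3 the next lowest level was in fraction 9. That array had a 75th percentile signal of 176, the next lowest after fraction 1. Its astrocyte markers, at -0.97, and endothelium markers, at -0.63, were the lowest of the sagittal series. The part of these in the levels was not tested. The limma adjusted p values of Gad1, Gad2 and Slc32a1 were 0.0225, 0.0251 and 0.0436. Without fraction 1 none of them passed (0.291, 0.213 and 0.293), and none of the 32364 probes did (5955 had an unadjusted p under 0.05). The fitted ranges were then 1.00, 1.32 and 1.42, against 2.03, 2.27 and 2.10 with all fractions. Without fractions 1 and 9 together none of the 3 passed (0.158, 0.104 and 0.130). Omission of fraction 2, 5 or 6 also took each of the 3 above the threshold, at fitted ranges of 2.00 to 2.34. Gad2 lost its call without fraction 3 or 4 too (0.0523 and 0.0588, ranges 2.25 and 2.40). Slc32a1 lost its call without fraction 3, 4, 7 or 8 (0.0625 to 0.106, ranges 2.07 to 2.17). With slide as a term none of the 3 was called (limma adjusted p = 0.0588, 0.0566 and 0.0837, ranges 1.96, 2.19 and 2.27). On fractions 5 to 10 of 1 slide none was called either (0.713, 0.690 and 0.705, ranges 1.03, 1.47 and 1.61). In that fit 0 of all probes were called. A stiffer curve with 1 degree of freedom fewer ended the calls of Gad1 and Gad2 (0.0564 and 0.0604). With levels centred on the array median, fraction 9 and not fraction 1 was the lowest for all 3 genes. None was then called (limma adjusted p = 0.137, 0.120 and 0.135), at fitted ranges of 2.59, 2.84 and 2.62. The second Slc32a1 probe had another course, at -1.52 in sagittal fraction 1, -0.77 in fraction 5, -1.79 in fraction 6 and -1.97 in fraction 10, its lowest. The mean of both probes gave a sagittal fitted range of 1.22 in place of 2.10 (limma adjusted p = 0.0489).

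In the horizontal plane no gene of GABA synthesis or loading was called (limma adjusted p = 0.160 for Gad1, 0.387 for Gad2 and 0.155 for Slc32a1). With array-median centring Gad1 and Slc32a1 were called (limma adjusted p = 0.0140 and 0.0246), as were 19258 of all 32364 probes, against 5115 with the 75th percentile. Gad1 ran from 3.06 in fraction 6 to 4.18 in fractions 4 and 5, Gad2 from 2.91 in fraction 1 to 4.12 in fraction 5, and Slc32a1 from 5.65 in fraction 1 to 7.20 in fraction 5. Fraction 5 held the highest level of Gad2 and Slc32a1.

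Slc6a11 (chr6:114131241-114249886), the GABA uptake transporter, had the widest range of the GABA genes. Its coronal levels were 2.36, 1.77, 1.61, 2.49, 2.31, 2.14, 1.59, 1.24, 0.92, 0.48, 2.84 and 3.49. The level was lowest in fraction 10 and highest in the next 2 fractions at the olfactory bulb end (limma adjusted p = 0.0463, fitted range 2.34). Without fraction 12 the limma adjusted p was 0.318 and the fitted range 1.22. Omission of fraction 5, 6, 7, 8, 9 or 11 gave an adjusted p of 0.0589 to 0.156, at fitted ranges of 1.94 to 2.46. The adjusted p was 0.376 with a stiffer curve (1 degree of freedom fewer) and 0.0511 with no filter on dim probes. With slide as a term it was 0.208, and on fractions 3 to 10 of 1 slide 0.0171. The fitted ranges were 1.07, 2.34, 1.63 and 1.85 in the same order.

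The horizontal levels of Slc6a11 were 0.32, 1.30, 1.56, 2.02, 2.06 and 1.48, lowest at the dorsal end (limma adjusted p = 0.0288). Without fraction 1 the fitted range was 0.80 and the adjusted p 0.213, and without fraction 3, 4 or 6 the adjusted p was 0.0732, 0.124 and 0.0505. A stiffer curve gave 0.469. The sagittal levels were -0.17, 0.31, 1.16, 2.46, 2.08, 2.62, 2.35, 0.71, -0.72 and 0.45. Fractions 4 to 7 were all above the others, though the trend missed the threshold (limma adjusted p = 0.0522), and it passed without fraction 9 (0.0134) or 10 (0.00518). It also passed with normexp (0.00943), a stiffer curve (0.0298), no filter on dim probes (0.0308) and probes well above background on all arrays (0.0145). Set against the mean of Gad1 and Gad2 on the same array, Slc6a11 was lowest of the coronal series in fractions 8 to 10, at -3.26 to -2.99, and highest in fraction 1, at -0.97. Over all planes it was lowest in sagittal fraction 9, at -3.51. That difference had r of 0.78 with astrocyte markers and 0.61 with midbrain markers.

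**Figure D4:**
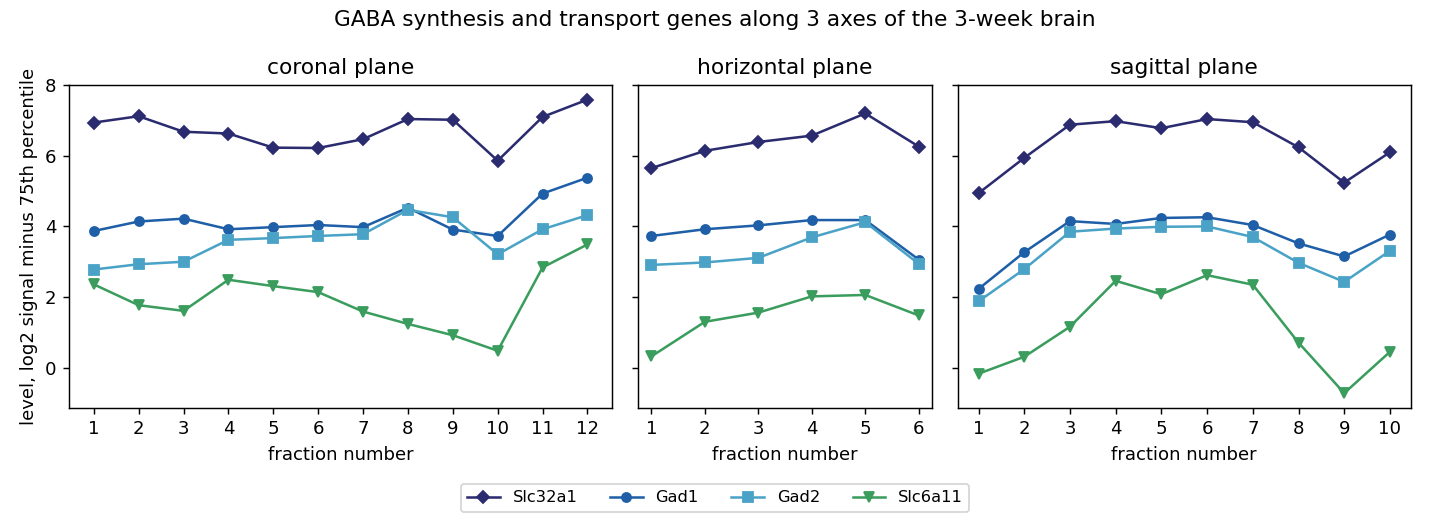
Level (log2 signal minus the array's 75th percentile) of Slc32a1, Gad1, Gad2 and Slc6a11 against fraction number in the 3 planes, 1 array per point. Gad1 and Slc6a11 reach their highest levels, 5.38 and 3.49, in coronal fraction 12, and all 4 genes are low in sagittal fractions 1 and 9; heights of different genes are not comparable.

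Over the 28 fractions r was 0.78 between Gad1 and Gad2, 0.83 between Slc32a1 and Gad1, 0.77 between Slc32a1 and Gad2, and 0.80 between Slc32a1 and Slc6a11. Gad1 and Gad2 had r of 0.98 in the sagittal plane and 0.52 in the coronal plane. Slc17a6 varied with Gad2 across the midline (r of 0.95) and in the horizontal plane (r of 0.84, 6 fractions) but not along the coronal axis (r of -0.36). These relations share their arrays, and r with the log2 of the 75th percentile signal was 0.73 for Slc17a6, between 0.64 and 0.70 for Slc17a8 and the 4 GABA genes, and -0.40 for Slc17a7.

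The glutamate to GABA balance compares both sides after each gene was set to its own mean. It is the log2 of the mean of Slc17a7 and Slc17a6, each divided by its mean over the 28 fractions, minus the log2 of the same mean for Gad1, Gad2 and Slc32a1. A balance of 0 is the average of these fractions and not equal amounts of RNA. Along the coronal axis the balance was 0.02, -0.36, -0.13, 0.53, 0.57, 0.84, 0.50, -0.79, -0.64, 0.40, -1.26 and -1.77.

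Fractions 4 to 7, which held the peaks of midbrain, thalamus, hippocampus and hypothalamus markers, leaned to glutamate, as did fraction 10 at 0.40. Fractions 8 and 9, with the peak of striatum markers in fraction 8, and fractions 11 and 12, at the olfactory bulb end, leaned to GABA. In fraction 12 both sides contributed, since the glutamate side was -0.73 and the GABA side 1.04. In fraction 8 the GABA side was 0.62 and the glutamate side -0.17. The coronal range of the balance was 2.60, and with unscaled linear sums its highest fraction was 10 and not 6.

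The horizontal balance was 0.34, 0.27, -0.17, -0.06, -0.40 and -0.14, a range of 0.73. Formed from unscaled linear sums, its range was 1.61. With Slc17a8 added to the glutamate side the range was 0.44, with the highest value in fraction 2 and the lowest in fraction 3. No gap between neighbouring horizontal values exceeded the mirror SD of 0.48. The sagittal balance was 2.01, 0.40, -0.42, 0.12, -0.05, 0.20, -0.09, 0.10, 0.48 and 0.62. Fraction 1 lay far above the rest: its glutamate side, 0.29, was close to the 0.27 of its mirror fraction 10, while its GABA side was -1.72 against -0.35. Without fraction 1 the sagittal range was 1.04 in place of 2.43.

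**Figure D5:**
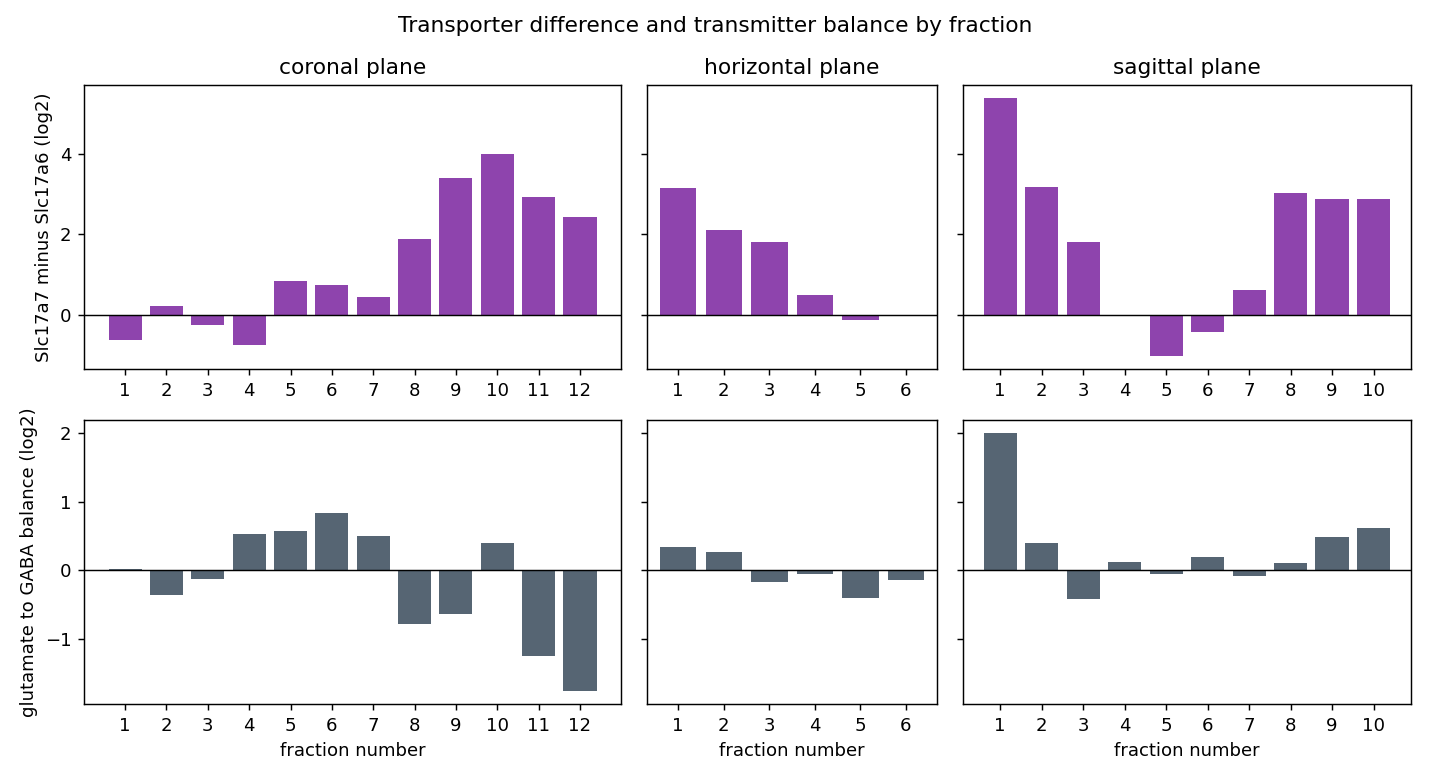
Bars give Slc17a7 minus Slc17a6 (upper row) and the glutamate to GABA balance (lower row), both in log2, against fraction number in the coronal, horizontal and sagittal planes; bars start at 0, 1 array each. The upper bars reach 4.00 in coronal fraction 10 and 5.40 in sagittal fraction 1, and the lower bars run from -1.77 in coronal fraction 12 to 2.01 in sagittal fraction 1.

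The genes that supply and recycle glutamate had lower median fitted ranges than the 7 genes. Of 14 genes of glutamate supply and recycling, 6 changed with position in the coronal plane, none in the horizontal plane and 2 in the sagittal plane (limma, as above), with median fitted ranges of 0.70, 0.53 and 0.79. Over all detected probes 33.7%, 15.8% and 14.7% were called, so the coronal and sagittal counts are near the background. At an unadjusted p under 0.05 the horizontal count was 2. Slc25a22, a mitochondrial glutamate carrier, ran from 0.20 in coronal fraction 1 to 3.27 in fraction 6 (adjusted p = 0.00328). Slc38a3, a glutamine transporter of astrocytes, ran from 1.30 in fraction 8 to 3.59 in fraction 12 (adjusted p = 0.00127). Slc38a1, a neuronal glutamine transporter, changed in the coronal and sagittal planes (limma adjusted p = 0.0321 and 0.0151) and had r of 0.86 with Slc32a1.

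Of 5 glutamate uptake transporters, 2 changed in the coronal plane, 3 in the horizontal plane and none in the sagittal plane, where 2 had an unadjusted p under 0.05. The shares over all probes were 33.7%, 15.8% and 14.7%. Slc1a6, known from Purkinje cells of the cerebellum, ran from 1.90 in coronal fraction 12 to 7.05 in fraction 2 (limma adjusted p = 0.000983). Slc1a2, the main astrocyte transporter, ran from 3.52 in fraction 12 to 5.06 in fraction 9 (limma adjusted p = 0.0389). Of 6 genes of GABA breakdown and uptake, 2, 0 and 2 changed in the coronal, horizontal and sagittal planes. At an unadjusted p under 0.05 the horizontal count was 3. Against the same shares over all probes the coronal count is near the background. Slc6a12 and Slc6a13, transporters known from the meninges and vessels, were the coronal calls and were both highest in fraction 12 (limma adjusted p = 0.0268 and 0.0137). Abat, which breaks GABA down, changed in the sagittal plane (limma adjusted p = 0.0476). Abat had r of 0.86 with Slc32a1 over the 28 fractions.

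Transcription factors of transmitter identity were also measured. Among the glutamatergic factors, Tlx3 was not detected widely enough to be tested, and Atoh1 was well above background on only 3 of 28 arrays. Tbr1, a factor of cortical excitatory neurons that was well above background on 28 arrays, ran from -2.10 in coronal fraction 1 to 4.59 in fraction 9 and had r of 0.65 with Slc17a7. Eomes, found in olfactory bulb output neurons, was highest in coronal fraction 12 at 3.86 and had r of -0.48 with Slc17a7, with 26 arrays well above background. Of 10 tested GABAergic factors, 8, 2 and 1 changed in the coronal, horizontal and sagittal planes, where all detected probes gave 33.7%, 15.8% and 14.7%, and Ptf1a, Pax2 and Sox14 were not tested. The horizontal and sagittal counts of these are near the shares of all probes. Their median fitted range was 3.75 in the coronal plane and 1.24 in the sagittal plane. Dlx1 and Dlx2, factors of forebrain inhibitory neurons, were highest in coronal fraction 12 at 3.15 and 2.82, and r with Gad1 was 0.27 and 0.30, with 25 arrays well above background for each. Gata3, a factor of midbrain and hindbrain inhibitory neurons, was highest in coronal fraction 4 at 0.23 and had r of 0.74 with Slc17a6, but only 18 arrays were well above background.

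The genes most like each member over the 28 fractions were sought among 15560 symbols. Iqsec2, Acot5 and Tcap were most like Slc17a7, with r of 0.931, 0.919 and 0.906. Ttc39a, Chrna4 and Ccdc184 were most like Slc17a6 (0.928, 0.920 and 0.917), and Chrna4, a nicotinic receptor subunit, and Slc27a2 followed Slc17a6 in likeness to Slc17a8 (0.896 and 0.885). Lancl3, Hs3st5 and Crybg3 were most like Slc32a1 (0.937, 0.921 and 0.916).

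Pde4d, Zfp518b and Zfp407 were most like Gad1, with r of 0.919, 0.917 and 0.900. Pgap1, Zswim6 and Clip4 were most like Gad2 (0.939, 0.931 and 0.931), and Sall2, Rassf4 and Insyn2b were most like Slc6a11 (0.931, 0.922 and 0.919). No member other than Slc17a6 appeared in the 3 nearest genes of another member. The number of genes with r over 0.85 was lowest for Slc17a8, at 16.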

How the data were processed

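RNA of 28 brain fractions was labelled with Cy3 and hybridised to 1-colour Agilent arrays. The authors scanned them with Feature Extraction 10.5.1.1, and the deposited processed signal is an intensity after background subtraction. A deposited table of log2 values by the authors was used as an alternative; over 44617 matched probes, 99.49% of its deviations from the levels used here were within 0.001 after a per-array offset.

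Outlier spots (108 to 176 per array) were dropped, spots of a probe averaged, and log2 signals centred on the 75th percentile of each array. No spot was saturated. Of 55681 probes 27235 were named by accession through RefSeq. Probes were tested if each plane held a fraction in which they were well above background (32364). A natural cubic spline of fraction number (3 degrees of freedom, 2 in the horizontal plane) was fitted with limma 3.58.1 in R 4.3.3 on each plane's fractions. The fits were tested on simulated data, and the outcome is not given here. Repeated spots on 1 array had a median SD of 0.056 to 0.085 log2, and the number of arrays limits the precision. Named genes were the 7 members, the 3 symbols with the highest r to each, and the genes of 5 lists of transmitter biology, with marker lists for cell types and regions. Some items of these lists are not reported here, nor are the counts that need them. Members and lists were chosen with earlier results of these data known. Alternatives were the array median, quantile and normexp scaling, other filters, a stiffer curve, slide as a term, 1 slide alone, and each fraction left out. P-values measure scatter between fractions of 1 animal.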

Additional observations from a re-analysis of the deposited data

Results flagged for a closer look

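The glutamate to GABA balance of sagittal fraction 1 lay far from the other 9 sagittal fractions. Its value was 2.01, the nearest other fraction had 0.62, and the gap took 0.574 of the whole range, beyond Dixon's critical value of 0.466 for 10 samples. Of 18 sets of fractions examined in this way, chance would give about 0.9 such values if the fractions were independent draws. They are ordered positions across 1 brain, so the critical value and this count do not measure chance here. With means of log2 levels in place of linear means the sagittal range was 1.29 and not 2.43. The same array had the lowest 75th percentile signal of the 28 arrays, 135, and the lowest oligodendrocyte markers, -2.99. Their part in the value was not tested.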

How the results depend on the processing

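With 1 coronal fraction left out in turn, 3 to 7 of the 7 genes were called in the coronal plane, against 5 with all. The count was 3 without fraction 5, 6, 7, 9 or 11. With slide as an added term it was 0, with 5410 of all probes at an unadjusted p under 0.05, and among fractions 3 to 10 of 1 slide it was 4. Slc17a7, Slc17a6 and Slc17a8 each passed in 21 of 22 coronal alternatives, failing only with the slide term (limma adjusted p = 0.121, 0.103 and 0.169). The fitted ranges were then 3.43, 4.33 and 2.39 against 1.85, 2.99 and 2.75, with 241 of all probes called against 10910. The 22 alternatives overlap, since 12 of them leave out 1 fraction each. The average of detected probes repeats the main values of these genes, and the authors' values nearly do, so neither could change a call. For the horizontal trend (2 genes) the array median gave 5 (19258 of all probes called, against 5115), a stiffer curve 0 (1 probe called, 3698 at an unadjusted p under 0.05), and single omissions 0 to 2, with 0 without fraction 3, 4 or 6 and 1 without fraction 1. Over all probes these omissions gave 0, 0, 1336 and 2213 calls. For the sagittal trend (5 genes) the array median gave 1 (343 of all probes called, against 4767) and the slide term 2 (2520). Fractions 5 to 10 of 1 slide gave 0 (0 of all probes called, 2330 at an unadjusted p under 0.05). Omission of fractions 1 and 9 together, chosen after seeing the data, gave 0 (938 called, 10190 at an unadjusted p under 0.05). Single sagittal omissions gave 0 to 6, with 0 without fraction 1 (0 of all probes) or 5 (2588), 1 without fraction 2 or 6, 2 without fraction 3 or 4, and 3 without fraction 7. The coronal Slc6a11 trend turned with 1 degree of freedom fewer (fitted range 1.07, adjusted p 0.376).

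The range of Slc17a7 minus Slc17a6 was 2.23 to 3.28 in the horizontal and 4.21 to 6.43 in the sagittal plane over single omissions. The range of the balance was 2.10 to 2.60 in the coronal plane, 0.51 to 0.73 in the horizontal plane and 1.04 to 2.43 in the sagittal plane. With unscaled linear sums the horizontal balance ranged over 1.61, and with Slc17a8 added to the glutamate side over 0.44. With means of log2 levels the sagittal balance ranged over 1.29. The cause of these changes was not tested.

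Scaling on the array median shifted all detected probes by -0.93 to 0.13 log2 over horizontal and -1.19 to 0.32 over sagittal fractions, relative to the 75th percentile. Called probes over all alternatives numbered 241 to 17330 in the coronal, 0 to 19258 in the horizontal and 0 to 19184 in the sagittal plane. No paired analysis was possible because fraction numbers of different planes mark different positions and no test compares the planes. With 1 array per position, neither animal nor hybridisation error could be estimated.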
